A study of Caenorhabditis elegans with 2 samples.

Results

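The histone genes of Caenorhabditis elegans were examined for peaks of the tagged transcription factor ZTF-11. They were taken as the protein-coding genes of the WBcel235 annotation named his- followed by a number, which gave 72 of 19985 protein-coding genes. Whole L3 larvae of strain OP236, of pooled sexes, had been used for chromatin immunoprecipitation followed by sequencing (ChIP-seq) in 2 biological replicates of 1 group. Per the labels, both carried the mutation unc-119(ed3) on chromosome III and the transgene wgIs236, with eGFP-ztf-11 as the target. The labels' antibody field names ztf-11 itself, and they do not state the number of animals, the promoter and cells of expression or the copy number of the transgene. No untagged strain was used here, so the height of the signal without the tag is not shown. In whole animals, strong binding in few cells and weak binding in many cannot be told apart.

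Histones package DNA into nucleosomes, built from the core histones H2A, H2B, H3 and H4, with linker histone H1 between them. Most core histone genes of C. elegans lie in clusters of near-identical copies, are expressed when DNA is replicated and end their mRNAs in a stem-loop. Variants such as H3.3 are deposited outside replication and are encoded by genes with introns or by single copies. ZTF-11 is a zinc finger protein of the Myt1 family, known for repressing non-neuronal genes while neurons form, and histone genes are not among its textbook targets.

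By the RefSeq product names, the 72 genes comprised 17 H2A, 16 H2B, 15 H3, 16 H4, 5 H3.3-type genes, 1 linker histone gene (his-24) and 2 genes for histone-fold domain proteins (his-39 and his-73). They lay at 19 loci when neighbours up to 10000 bp apart were joined. Of these, 14 were clusters that held 67 genes, and 5 genes stood alone. Chromosome V held 27, IV 22, II 14, X 4, III 3 and I 2. Within the clusters, 62 genes formed 31 divergent pairs, H2A with H2B or H3 with H4 in all but the pair of his-67 (H4) and his-68 (H2A). The spacers between their annotated starts ran from 227 to 368 bp, with a median of 258 bp. In the Ensembl annotation 36 of the 72 shared a name with another member, so names here follow RefSeq, which gave each WormBase identifier its own.

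Each deposited peak list was searched for a summit within 1000 bp of a gene's annotated 5′ end. The lists were those of replicate 1 (30000 peaks), replicate 2 (2036 peaks), both replicates pooled (631 peaks) and the thresholded list (96 peaks), all on ce11. The replicate and pooled lists are relaxed ones, which by their names hold background as well as peaks. The authors' signal score and −log10 q-value of a peak describe it within its own list. Their scales differ between lists, so scores are not compared across them. Library depth is unknown, since no read numbers accompany the peaks, and the precision it gives cannot be stated.

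Few histone genes had a peak, and those that had one in both replicates lay at 3 of the 19 loci. In replicate 1, 20 of the 72 had a peak (27.8%), against 48.9% of all protein-coding genes. In replicate 2 it was 6 (8.33%) against 4.86%, in the pooled list 4 (5.56%) against 1.64%, and in the thresholded list 1 (1.39%) against 0.260%. The histone share thus lay below that of all genes in the long replicate 1 list and above it in the other lists. When a peak counted for the nearest gene only, the replicate 2 share was 2.78% against 4.03%, below that of all genes. With replicate 1 limited to its 2036 strongest peaks, as many as replicate 2 holds, 9 histone genes had a peak (12.5%) against 4.21%. Both replicate lists had a peak at 5 genes, his-37, his-41, his-67, his-68 and his-74 (6.94%), against 3.11% of all genes. These shares are descriptions with no test, since genes of a pair or cluster share peaks. With the strongest peak of each gene taken, the 20 genes of replicate 1 rested on 13 peaks and the 6 of replicate 2 on 4.

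**Figure D1:**
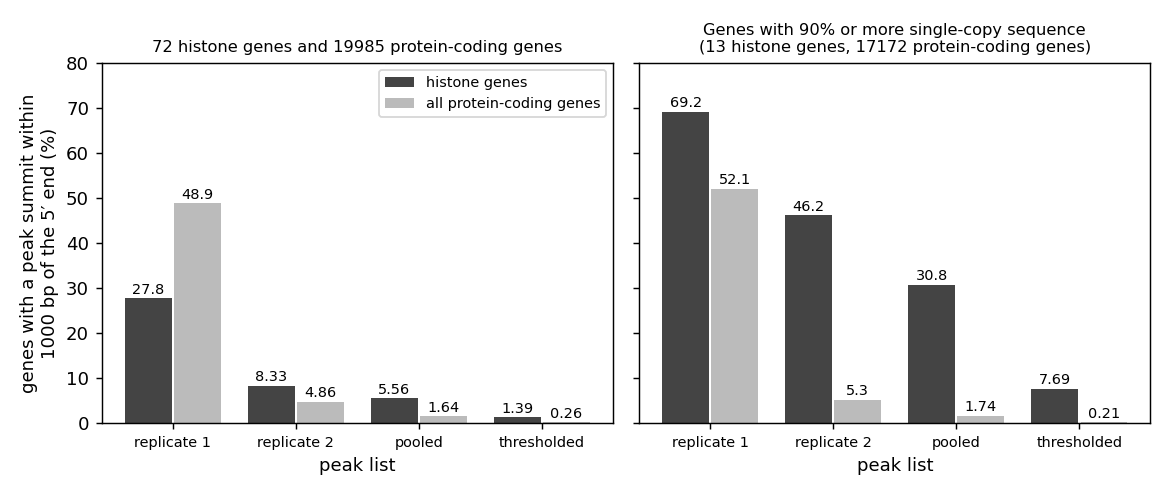
Percent of genes with a peak summit within 1000 bp of the 5′ end (vertical axis) in each peak list (horizontal axis), for histone genes (dark bars) and all protein-coding genes (light bars). Left, all 72 histone genes, below the background of 48.9% in replicate 1 and above that of each of the other lists. Right, the 13 histone genes and 17172 protein-coding genes with 90% or more single-copy sequence, where the histone share was the higher in each list. A peak counts for every gene within 1000 bp, also where another gene is nearer.

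The promoter of his-37 had the highest-scoring histone peak of replicate 2, of the pooled list and of the thresholded list. his-37 (WBGene00001911) encodes histone H4 and lies on V from 9547105 to 9547607 on the plus strand, with 2 exons. Its thresholded peak ran from 9546892 to 9547211, with the summit 53 bp upstream of the 5′ end, a score of 46.3, a −log10 q-value of 1.23 and rank 60 of 96. No other histone gene had a thresholded peak within 1000 bp. In replicate 2 a peak lay 47 bp upstream, with a score of 27.0, a −log10 q-value of 1.21 and rank 73 of 2036. In replicate 1 a peak lay 102 bp upstream, with a score of 21.4, a −log10 q-value of 1.70 and rank 224 of 30000. The summits of the replicates were thus both in the promoter, and their peaks overlapped. The part of the thresholded peak before the gene's start is shown because this promoter had a peak in every list. It is given on the plus strand of WBcel235 (ce11), chrV:9546892-9547104. Capitals mark, in order, AAGTTT (the core of Myt1-family sites), GTGTCCCCGC (the other strand of GCGGGGACAC, described further down) and TATAAA.
his-37 upstream: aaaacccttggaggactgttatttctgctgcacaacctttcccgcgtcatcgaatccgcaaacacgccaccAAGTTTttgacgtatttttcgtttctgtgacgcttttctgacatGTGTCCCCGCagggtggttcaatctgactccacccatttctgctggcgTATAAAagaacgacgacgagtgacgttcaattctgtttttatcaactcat

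In this stretch AAGTTT ended 137 bp before the 5′ end, GTGTCCCCGC 89 bp and TATAAA 45 bp before it. The centre of AAGTTT lay 86 bp upstream of the thresholded summit and that of GTGTCCCCGC 40 bp upstream of it. A match of letters is a description and not a measured binding site.

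his-37 shares its locus with his-35 (WBGene00001909, H2A) and his-41 (WBGene00001915, H2B), a divergent pair with 2 exons in each gene. A second region of signal lay upstream of his-37 in C50F4.6, a gene that overlaps the end of his-41 and whose RefSeq product is a cold-shock protein. In replicate 1 it was the strongest peak near any histone gene, at V 9546234 to 9546553, with a score of 23.7 and rank 116. Its summit lay 711 bp upstream of his-37 and 858 bp downstream of the 5′ end of his-41, but 302 bp inside C50F4.6, whose 5′ end was the nearest. In replicate 2 the peak here was shifted to 9545950 to 9546309, with a score of 17.5 and rank 691, and its summit lay 38 bp inside C50F4.6 and also within his-41. Its −log10 q-value was 0.103. The summit was 842 bp from the 5′ end of his-35 and 594 bp from that of his-41. In the pooled list the region had a score of 26.5, a −log10 q-value of 0.0136 and rank 618 of 631, near the lowest score of that list (26.4), and it was absent from the thresholded list. The 247 bp spacer between his-35 and his-41 held no summit in any list.

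**Figure D2:**
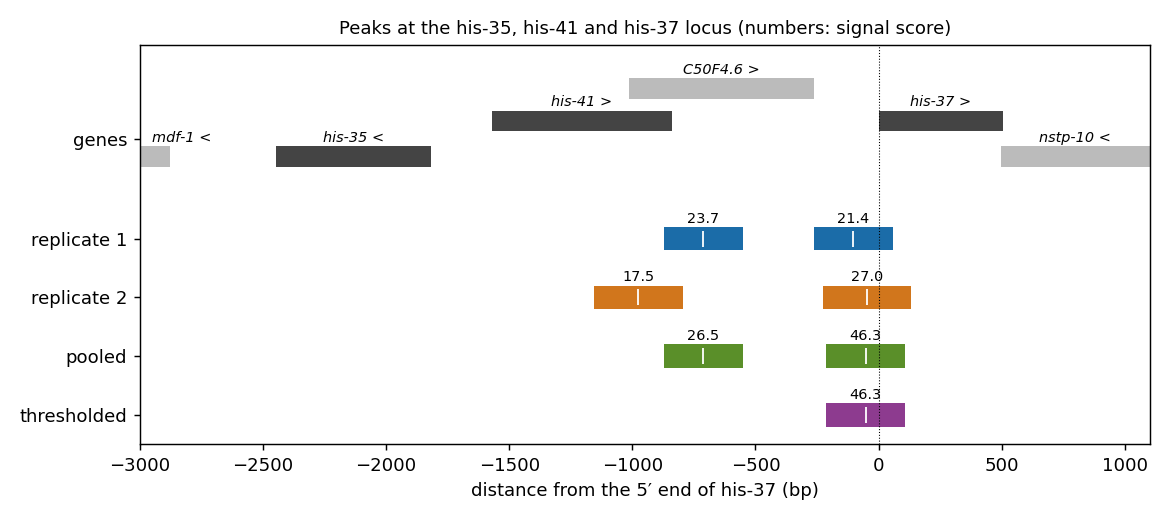
Peaks of the 4 lists (coloured bars, with a white tick at the summit and the signal score above) and annotated genes (top, histone genes dark, arrows for strand) by distance in bp from the 5′ end of his-37. The peak over the his-37 start is in all 4 lists, with thresholded score 46.3; the peak in C50F4.6 is in the replicate and pooled lists, with pooled score 26.5.

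The second locus with repeated signal was the pair of his-67 (WBGene00001941, H4) and his-68 (WBGene00001942, H2A) on chromosome I. Its spacer of 368 bp, the longest of the 31, held the summit of 1 peak in each of the replicate and pooled lists. In replicate 1 the peak at I 9988809 to 9989128 had a score of 18.4, a −log10 q-value of 1.55 and rank 615, with the summit 206 bp upstream of his-67 and 163 bp upstream of his-68. In replicate 2 the peak at 9988750 to 9989109 had a score of 18.7, a −log10 q-value of 0.171 and rank 430, with the summit 167 bp upstream of his-67 and 202 bp upstream of his-68. The summits of the 2 replicates fell between the genes and their peaks overlapped. In the pooled list the score was 35.9, the −log10 q-value 0.632 and the rank 157 of 631, and the peak did not enter the thresholded list. This was the sole spacer of the 31 with a summit in replicate 2 or in the pooled list.

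The third was his-74 (WBGene00012276), an H3.3-type gene on V from 12659704 to 12660330 on the minus strand, with 2 exons. Its replicate 1 peak at 12659706 to 12660025 had a score of 10.4, a −log10 q-value of 0.505 and rank 9428, with the summit 464 bp downstream of the 5′ end and inside the gene. The replicate 2 peak at 12659466 to 12659825 had a score of 17.0, a −log10 q-value of 0.0760 and rank 835, with the summit 684 bp downstream. The peaks overlapped, but both summits lay nearer to the 5′ end of the neighbouring ccch-3, at 179 bp upstream of it in replicate 1 and 41 bp downstream in replicate 2. The pooled list had no peak here. By the q-values of replicate 2, the peaks of his-67 with his-68, of C50F4.6 and of his-74 were weak, and the his-37 promoter peak was the strongest of the 4.

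Peaks at histone genes found in replicate 2 were also found in replicate 1. An overlap of at least 1 bp with the replicate 1 list was found for all 4 of the distinct replicate 2 peaks, against 33.3% of all 2036. In the other direction it was found for 3 of the 13 peaks (23.1%), against 2.39% of all 30000. The 13 are the strongest peak of each gene and leave out the replicate 1 peak at the his-37 promoter (rank 224), since the C50F4.6 peak scored higher. That promoter peak overlapped the replicate 2 peak there. Summits of the replicates lay within 200 bp of each other at 2 of the 4, those of his-37 and of his-67 with his-68. All 3 pooled peaks at histone genes overlapped a peak in both replicates, while 49.6% of all pooled peaks overlapped one in replicate 2.

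Beyond these loci, histone genes had peaks in replicate 1 alone. The pair of his-60 (WBGene00001934, H4) and his-59 (WBGene00001933, H3) on IV had a peak at 7487740 to 7488059 with a score of 17.9 and rank 747. Its summit lay 92 bp inside his-60, and the peak reached into the spacer. In the same cluster, the spacer between his-61 (WBGene00001935, H2A) and his-62 (WBGene00001936, H2B) held a summit at 7486466 with a score of 9.47 and rank 12445, near the list's median score of 8.84. The pair of his-66 (WBGene00001940, H2B) and his-65 (WBGene00001939, H2A), also on IV, had a peak with a score of 18.4 and rank 595. That summit lay 607 bp downstream of the 5′ end of his-65, past the end of the gene, and a piRNA gene, 21ur-12556, was closer to it at 265 bp. his-42 (WBGene00001916, H3), at the end of the chromosome II cluster, had a peak of score 18.3 and rank 635 with the summit 659 bp upstream. This summit lay inside 2 noncoding RNA genes, F08G2.10 and F08G2.15. A second peak, with a score of 10.1 and rank 10347, had its summit 60 bp upstream of his-42.

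The other replicate 1 peaks were weak. Of the 13 distinct peaks, 5 were among the 2036 strongest of the list, and the other 8 had ranks from 6673 to 29907. The weak ones included those of his-71 (WBGene00001945), an H3.3 gene on X with a score of 11.5 inside the gene, and his-72 (WBGene00001946), an H3.3 gene on III with a score of 8.75 also inside the gene. his-31 and his-8 had peaks of scores 8.17 and 8.07 that lay 858 and 985 bp downstream of their 5′ ends. The peak inside his-63 had a score of 6.33 and rank 29907, against a lowest score of 6.32 in the list. Of the 13 peaks, 9 had a histone gene as the nearest protein-coding 5′ end and 4 had another gene: C50F4.6, ccch-3, lys-10 near his-31 and Y75B8A.33 near his-72. Just outside the distance lay replicate 1 summits 1106 bp from his-35, 1180 bp from his-32, 1278 bp from his-7 and 1286 bp from his-24, and a replicate 2 summit 1166 bp from his-38.

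**Figure D3:**
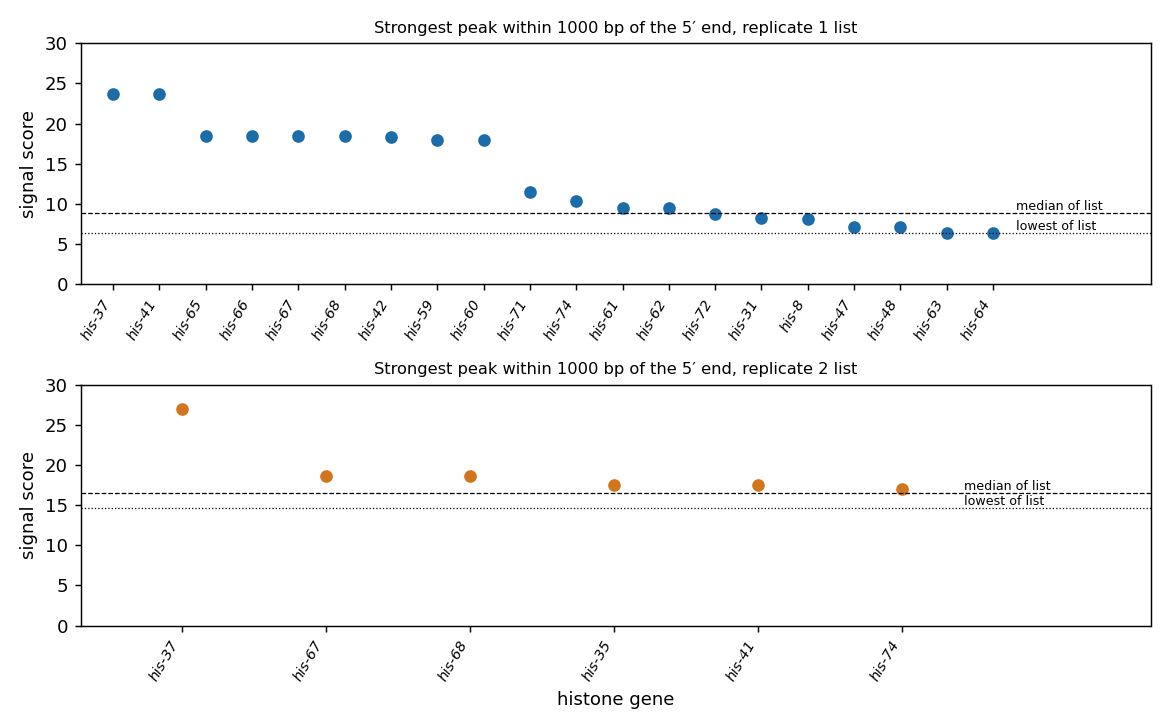
Signal score (vertical axis) of the strongest peak with a summit up to 1000 bp from the start of each histone gene that had one (horizontal axis), in replicate 1 (top, 20 genes) and replicate 2 (bottom, 6 genes), with the median (dashed) and lowest score (dotted) of each list. Genes of a pair often share 1 peak and then have the same score. The highest score of replicate 1, 23.7, is that of the peak in C50F4.6, counted for his-37 and his-41. The his-37 promoter peak of that list, with 21.4, is not shown. The highest of replicate 2, 27.0, is at the his-37 promoter. Several replicate 1 scores lie near the lowest score of 6.32.

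In replicate 1 the strongest summit lay upstream of the 5′ end at 10 of the 20 genes, against 43.8% of the 9764 protein-coding genes with a peak, and 5 of the 20 lay within 250 bp of it, against 27.7% of those genes. The median distance was 550 bp, against 488 bp. In replicate 2, 3 of 6 lay within 250 bp, against 34.7% of 972 genes. At the genes with a pooled peak the distances were 53 bp for his-37, 206 and 163 bp for his-67 and his-68, and 858 bp for his-41.

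Most histone genes lie in sequence that occurs more than once in the genome, and all 6 with a replicate 2 peak were among the 13 with the most single-copy sequence. This was measured from the genome as the percent of 36-base words within 1000 bp of the 5′ end that occur once on either strand, here called the single-copy share. Its median was 29.3% over the 72 histone genes, with quartiles at 6.94% and 84.0%, against 100% over all protein-coding genes, whose lower quartile was 96.9%. At 16 histone genes it was 0. The spacers show this too: the 31 comprised 21 distinct sequences, and 16 were identical to another spacer over their whole length. The pair his-50 and his-49 and the pair his-28 and his-27 lie in different clusters of V, and the inner parts of their spacers are shown as an example of a copied promoter with no peak in any list. They are on the plus strand, chrV:8847755-8847892 and chrV:8889850-8889987, with 50 bp left out at either end. Capitals mark TTTATA or TATAAA and GCGGGGACAC.
his-50 and his-49: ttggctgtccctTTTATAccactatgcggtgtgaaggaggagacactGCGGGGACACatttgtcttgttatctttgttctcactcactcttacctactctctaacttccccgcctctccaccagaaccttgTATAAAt
his-28 and his-27: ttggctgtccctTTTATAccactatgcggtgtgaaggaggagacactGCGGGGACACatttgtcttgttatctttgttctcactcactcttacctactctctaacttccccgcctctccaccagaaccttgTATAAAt

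The sequences above differ by 0 edits. Among the 41 histone genes with a single-copy share under 50%, 5 had a replicate 1 peak (12.2%) and 0 a peak in another list. The 5 were his-42, the pair of his-47 and his-48 and the pair of his-66 and his-65, and each pair shared 1 peak. Of the 496 protein-coding genes with such a share, 6.25% had a replicate 1 peak, 0 a replicate 2 or thresholded peak and 2 a pooled peak (0.403%). Of the 18 histone genes from 50 to under 90%, 6 had a replicate 1 peak (33.3%), against 34.3% of the 2305 protein-coding genes in that range. The 13 histone genes with 90% or more, at 8 loci, had a replicate 1 peak in 9 (69.2%), against 52.1% of 17172 protein-coding genes. They had a replicate 2 peak in 6 (46.2%) against 5.30%, a pooled peak in 4 (30.8%) against 1.74% and a thresholded peak in 1 (7.69%) against 0.210%. The 6 rested on 4 peaks, and those of his-35 with his-41 and of his-74 lay nearest to C50F4.6 and ccch-3. When a peak counted for the nearest gene only, 2 histone genes had a replicate 2 peak and 2 a pooled peak. By locus, 6 of the 8 had a replicate 1 peak, 3 a replicate 2 peak, 2 a pooled peak and 1 a thresholded peak. Counted by gene, the histone share in replicate 1 was above that of all genes in the highest range and close to it in the middle one. Over all 72 it was below. In the lowest range it was also above by gene, but the peak of each pair counted for both genes. With 5 genes that include these pairs, the order there is not read as a difference. The ranges held 41, 18 and 13 of the histone genes and 496, 2305 and 17172 of the protein-coding genes. The limits of the ranges were chosen after the data were seen. The text records of the labels name signal tracks of unique reads among the other outputs, but do not say whether the peak lists rest on unique reads, so the part of read mapping in this result was not tested.

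**Figure D4:**
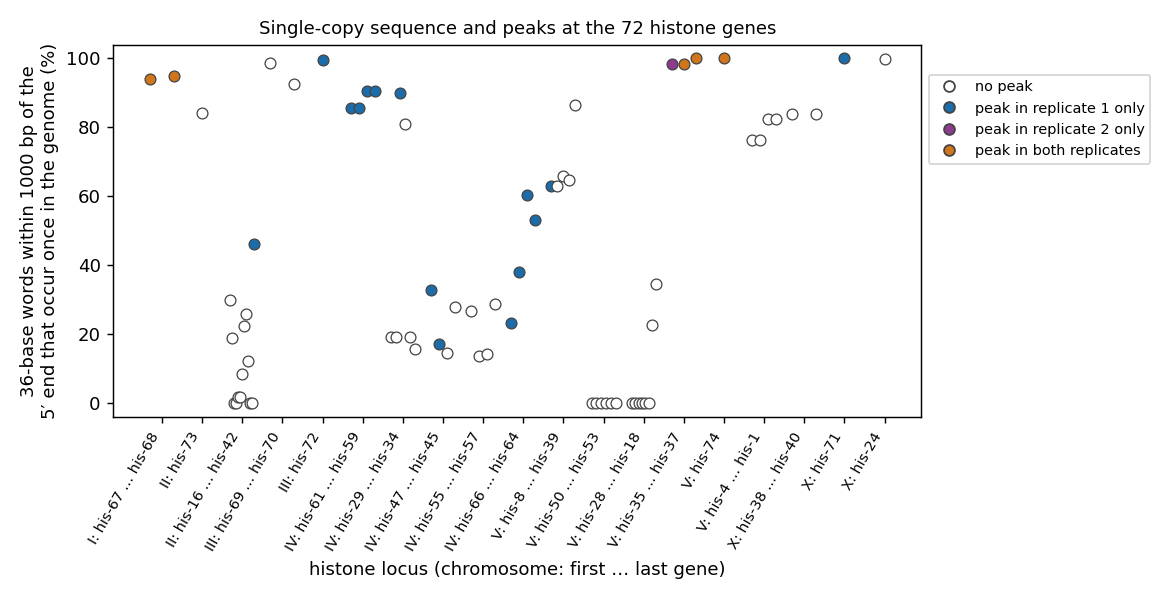
Single-copy share in percent (vertical axis) for each of the 72 histone genes, grouped by locus in genome order (horizontal axis, chromosome with the first and last gene); fill shows whether a peak was found in replicate 1, replicate 2, both or neither (white). Genes with a replicate 2 peak have shares of 93.9% to 100%, and the clusters of his-50 to his-53 and his-28 to his-18 on V, with shares of 0 to 34.7%, have no peak.

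The clusters differed in both measures. On V, his-50 to his-53 (6 genes, 8847393 to 8854053) and his-28 to his-18 (8 genes, 8889488 to 8898539) lay in a stretch of 96062 bp without a replicate 1 summit. It was the second longest of the 29994 stretches between neighbouring summits, whose median was 2039 bp, and its single-copy share was 11.3%. The cluster of 13 genes on II (13817760 to 13828697) had a single-copy share of 19.5% and a replicate 1 peak at 1 of its genes, his-42, at its outer edge. The cluster of his-61 to his-59 on IV, with a share of 90.2%, had a replicate 1 peak at all 4 of its genes. So did the cluster of his-66 to his-64 on IV, with a share of 62.7%. The cluster of his-47 to his-45, with a share of 40.4%, had one at 2 of 4 genes. In these clusters the genes of a pair shared their strongest peak, and 48.9% of all protein-coding genes had a replicate 1 peak. The peaks of his-63 with his-64 and of his-47 with his-48 were weak, at ranks 29907 and 24278 of 30000. The summit of the latter lay outside the cluster. The cluster of his-4 to his-1 on V, which encodes 1 of each core histone, had a share of 82.6% and no peak in any list, with the nearest replicate 1 summit 5126 to 6038 bp from the 5′ end of each gene. The pair of his-69 and his-70 on III, of H3.3 type, had a share of 95.4% and no peak within 1000 bp in any list. A high single-copy share of a cluster was thus not always accompanied by a peak, nor a lower one by its absence. Within the peaks themselves the share was mostly high: 10 of the 13 replicate 1 peaks had 90% or more single-copy words. It was 100% in the peak of his-66 with his-65 and in that of his-47 with his-48. The lower ones were 82.1% in the peak of his-60 with his-59, 30.2% in that of his-42 (rank 635) and 14.7% in that of his-63 with his-64.

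By histone type, replicate 1 peaks lay at 4 of 17 H2A genes, 5 of 16 H2B, 3 of 15 H3, 5 of 16 H4 and 3 of 5 H3.3-type genes, and at none of the linker histone gene and the 2 histone-fold genes. Replicate 2 peaks lay at 2 H2A genes, 1 H2B, 2 H4 and 1 H3.3-type gene, and at 0 of the 15 H3 genes. Over all protein-coding genes the share was 48.9% in replicate 1 and 4.86% in replicate 2, so 0 of 15 is near the background. Genes of different types also share peaks, as his-67 with his-68 and his-35 with his-41 do in replicate 2. Counts also differed by exon number. Of the 8 histone genes with 2 or more exons (his-24, his-35, his-37, his-41, his-57, his-71, his-72 and his-74), 5 had a replicate 1 peak and 4 a replicate 2 peak. Of the 64 with 1 exon it was 15 and 2. Among all protein-coding genes the shares were 49.1% and 4.83% with 2 or more exons and 42.3% and 5.88% with 1 exon. The single-copy share moved with exon number, with a median of 99.7% over the 8 genes and 24.7% over the 64, so the 2 properties cannot be told apart here. Of the 4 genes with a replicate 2 peak, 3 share 1 locus. The replicate 2 peak shared by his-35 and his-41 lay nearest to C50F4.6 and that of his-74 nearest to ccch-3. In replicate 1 the strongest peaks of his-37, his-41, his-72 and his-74 also lay nearest to genes other than histone genes.

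Counted by gene, few histone promoters held the Myt1-family core and many held another sequence. In windows from 250 bp before to 50 bp after the 5′ end, AAGTTT on either strand was found at 6 of 72 histone genes (8.33%), against 41.6% of 19973 nuclear protein-coding genes. The 6 were all 5 H3.3-type genes, his-69, his-70, his-71, his-72 and his-74, together with his-37. None of the 31 spacers held it, and the 6 genes all lie outside the divergent pairs. TATAAA, the core of the TATA box, was found at 47 (65.3%), against 37.9%. Of the 72 genes, 62 share the 31 spacers, which comprise 21 distinct sequences, so copied promoters count more than once in these shares. A general lack of AAGTTT at histone genes is thus not shown. No AAGTTT lay within 100 bp of the summits of the his-67 and his-68 peaks. Of the 13 replicate 1 peaks that were the strongest of a gene, 2 had one (15.4%), against 23.1% of all replicate 1 peaks. These 13 leave out the replicate 1 peak at the his-37 promoter, which also held AAGTTT: its summit lay 102 bp upstream of his-37, and AAGTTT ended 137 bp upstream.

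The 10-base sequence GCGGGGACAC, in either orientation, was noticed in printed histone promoter sequences and then counted, so its count at histone genes supports nothing further. It was found in the windows of 30 histone genes (41.7%), against 0.185% of nuclear protein-coding genes, which is 37 genes, the 30 included. The 30 were both genes of 14 divergent pairs, with 10 distinct spacer sequences, and his-37 and the linker histone gene his-24. None of the H3.3-type genes had it, so it and AAGTTT occurred together at his-37 alone. The inner spacers of both pairs of the his-61 to his-59 cluster show it in different surroundings. They lie on the plus strand at chrIV:7486268-7486494 and chrIV:7488043-7488198, with 50 bp left out at either end, and capitals mark GCGGGGACAC and, in the former, TTTATA.
his-61 and his-62: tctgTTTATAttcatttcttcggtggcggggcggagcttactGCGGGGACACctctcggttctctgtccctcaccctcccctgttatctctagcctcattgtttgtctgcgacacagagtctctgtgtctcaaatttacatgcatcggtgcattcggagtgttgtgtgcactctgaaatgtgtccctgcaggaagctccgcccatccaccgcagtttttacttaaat
his-60 and his-59: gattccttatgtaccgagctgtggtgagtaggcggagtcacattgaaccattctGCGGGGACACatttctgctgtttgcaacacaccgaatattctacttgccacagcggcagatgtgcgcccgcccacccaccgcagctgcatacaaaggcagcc

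Within 100 bp of summits, GCGGGGACAC was found at 2 of the 2007 nuclear replicate 2 peaks (0.0997%), and at 2 of the 607 nuclear pooled peaks (0.329%). In both lists these 2 were the peaks of his-37 and of his-67 with his-68. The letters of the sequence were read from the his-37 promoter, so its presence at the his-37 promoter peaks was fixed in advance. No link of the sequence to peaks can be drawn from it. In replicate 1 the sequence lay at 7 of 30000 peaks, and at 1 of the 13 that were the strongest peak of a histone gene. The replicate 1 peak at the his-37 promoter (rank 224) is not among these 13, since the C50F4.6 peak scored higher. It also held the sequence near its summit: the summit lay 102 bp upstream of his-37, and the sequence ended 89 bp upstream. Of the 30 genes with it, 11 had a replicate 1 peak, 3 a replicate 2 peak and 1 a thresholded peak. Over the 72 histone genes the shares were 27.8%, 8.33% and 1.39%, and over all protein-coding genes 48.9%, 4.86% and 0.260%. Most genes with the sequence had no peak, but neither had most genes of those 2 sets, and genes of a pair share peaks.

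**Figure D5:**
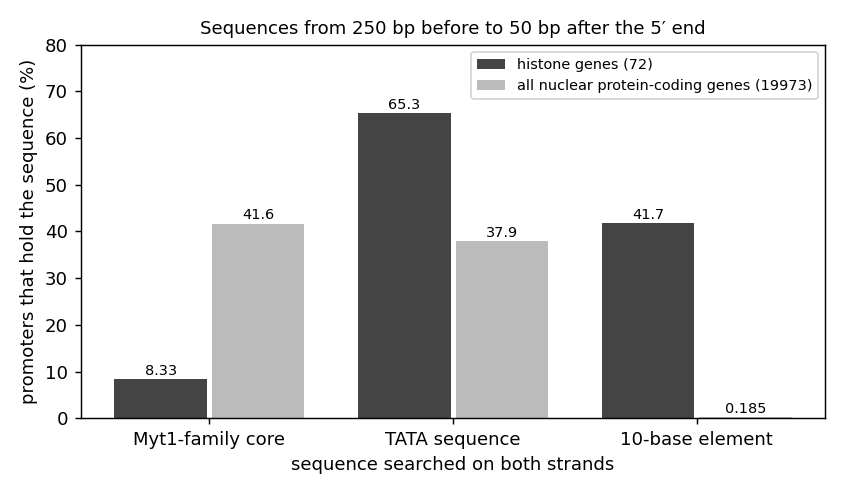
Percent of promoters (vertical axis; 250 bp before to 50 bp after the 5′ end) that hold each of 3 sequences on either strand (horizontal axis), for the 72 histone genes (dark) and all 19973 nuclear protein-coding genes (light). The Myt1-family core is AAGTTT (8.33% against 41.6%), the TATA sequence TATAAA (65.3% against 37.9%) and the 10-base element GCGGGGACAC (41.7% against 0.185%). Each gene counts, also where its promoter is shared with or copied from that of another histone gene.

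Genes related to histones by function were also counted. Of 11 histone genes without a his name (linker histones hil-1 to hil-8, the H2A.Z gene htz-1, and hcp-3 and cpar-1 for the centromeric H3), 9 had a replicate 1 peak, against 48.9% of all genes, and 0 a peak in another list. The strongest of these were at hil-2 (score 18.6, rank 562) and cpar-1 (score 18.3, rank 632). Of 14 genes for histone mRNA binding, chaperones and assembly, 5 had a replicate 1 peak, a share below that of all genes, and 0 another. Among them was cdl-1, which encodes the stem-loop binding protein of histone mRNAs, with a score of 15.7 at 404 bp upstream. Of 22 genes of S phase and DNA replication, 15 had a replicate 1 peak and 1 a replicate 2 peak. With 4.86% of all genes called in replicate 2 and fewer in the pooled and thresholded lists, counts of 0 or 1 in lists of this size are near the background. The gene with the replicate 2 peak was pcn-1, which encodes the sliding clamp PCNA, with a summit 244 bp upstream, a score of 21.4 and rank 188, and with no replicate 1 peak within 1000 bp. No gene of these 3 lists had a peak in both replicates, or in the pooled or thresholded list.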

How the data were processed

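The deposited files are peak lists from whole L3 larvae. Per the labels, each replicate list came from that replicate's alignments and a control, the pooled list from both, and the authors' thresholded list from all of these through the irreproducible discovery rate. Aligner, caller, read filters, treatment of repeated matches and threshold: not given in the sources used here. The authors deposited a signal score per peak, of unstated scale, and a −log10 q-value. The ce10 lists were not used here.

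Each gene took the highest-scoring peak with a summit within 1000 bp of its 5′ end. Genes were from Ensembl release 115 (WBcel235, the sequence of ce11) and symbols and product names from RefSeq. Python 3.11.15, numpy 2.4.6, pandas 2.3.3 and edlib 1.3.9.post1 were used. Gene calling, peak overlap (1 bp or more) and word counting were tested on simulated data with known answers. Histone genes, gene lists and distances were chosen with earlier results of these data known. Named genes were those with a pooled or thresholded peak, with a peak in both replicates or with 1 of the 10 highest scores of a replicate, those outside clusters and those of H1 or H3.3 type. Other genes are named as the nearest to a peak. The remaining named genes (among them his-8, his-31, his-63, hil-2, cpar-1, cdl-1 and pcn-1), the spacers shown and the clusters described were chosen after their values were seen. No test was run, because genes share peaks and there is 1 group. Values describe these 2 libraries. Alternatives tried were other distances, peak subsets, gene assignment, cluster gaps, word lengths and motif windows.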

Additional observations from a re-analysis of the deposited data

How the results depend on the processing

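Of 43 alternatives, 27 gave a value within 1.5 times the reported one and 16 did not. The 20 histone genes with a replicate 1 peak became 11 at a distance of 500 bp, 31 at 2000 bp, 11 with nearest genes only, 13 with the list's peaks above its median score, 9 with its strongest 2036 peaks and 9 with genes of 90% or more single-copy words (added after seeing the data). The 6 of replicate 2 became 3 at 500 bp and 2 with nearest genes (2.78% against 4.03% of all genes, which turns the order of the shares), and the 4 of the pooled list 2 with nearest genes (against 1.32%). The 1 thresholded gene became 3 at 2000 bp, which adds his-35 and his-41 through the same peak, and 0 above the median score. The pooled and thresholded lists could not be remade without a replicate. Keeping only their peaks that overlap the other replicate's list left 4 and 1 genes, which the overlaps reported above already fix, so this says nothing about stability. With summits within 200 bp, 2 of 4 replicate 2 peaks matched replicate 1. Counts of AAGTTT within 50 bp of summits were 1 in replicate 1 and 0 in the other lists. The replicate 1 peak at the his-37 promoter, which holds AAGTTT, was not among the peaks counted. The share of all protein-coding genes in replicate 1 also moved, to 29.4% at 500 bp, 72.2% at 2000 bp and 44.0% with nearest genes. What library depth limits could not be measured.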

Other observations

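The sequence GCGGGGACAC occurred 81 times in the nuclear genome, 20 of them within histone loci and 1000 bp either side. The 7 protein-coding genes outside the histone genes with it in the promoter window, named after the count was seen, were cnc-6, egl-17, fbxb-107, K07C5.13, memb-1, W04C9.5 and ZC13.1.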
